A study of Mus musculus with 2 samples.

Results

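Barcodes with the transcripts of pineal cells were found in both libraries of mouse dura mater. They numbered 17 of 2608 retained barcodes in the library taken 14 days after jugular venous ligature (JVL-14), which is 0.652% (exact 95% interval 0.380% to 1.04%). They numbered 57 of 4951 retained barcodes in the library taken after sham surgery (sham), which is 1.15% (0.873% to 1.49%), so that 74 of 7559 retained barcodes were pineal in all. Members had at least 200 genes and at most 10% mitochondrial UMIs (unique molecular identifiers, each counting 1 captured transcript), at least 5 UMIs summed over Pde6g, Sag, Aipl1, Gnb3 and Tulp1, under 5 over Omp and Stoml3, and under 5 over C1qa, C1qb and C1qc. Those 5 summed genes chose the members, and their values are given only as a description. The share in JVL-14 was 0.566 times that in sham (0.309 to 0.987), and with 1 library a group no test between the groups was possible. Every interval here covers counting error only.

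Both libraries came from perfused female mice whose dura mater was freed from the skull and then dissociated with collagenase D and DNase I. Cells of 2 meninges were combined per well, viable singlets were sorted, and 20000 cells were loaded per library for 3′ single-cell RNA sequencing. Neither the number of mice nor their strain, the hour of day or the time after sham surgery is stated in those sources. The deposited matrices held 18796260 UMIs over 3004 barcodes in JVL-14 and 33996641 UMIs over 5495 barcodes in sham, and 2 barcode sequences occurred in both libraries, none of them a member.

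The pineal gland lies under the skull at the midline, attached close to the dura. Its main cell, the pinealocyte, makes serotonin from tryptophan and turns it into melatonin, chiefly at night, under noradrenaline released by sympathetic nerves. In fish and birds pineal cells sense light directly. Mammalian pinealocytes no longer do so as a rule, but they share with retinal photoreceptors the transcription factor Crx and many genes of the phototransduction cascade, in which a visual pigment activates the G protein transducin, transducin activates the phosphodiesterase PDE6, and a fall in cyclic GMP closes a channel of CNG subunits. Many laboratory mouse strains carry alleles that lower melatonin synthesis, so transcripts of its enzymes do not say how much melatonin was made.

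Promoters of 5 genes high in these barcodes are shown because they carry the core sequence bound by Crx and Otx2, TAATCC on either strand (GGATTA as printed). They are RefSeq windows on GRCm38.p6, a different build from that of the counts, from 250 bases before to 50 bases after the annotated start, written 5′ to 3′ on the gene's strand with the motif in capitals. Sag (chr1:87803430-87803729, plus strand) encodes rod arrestin, Aipl1 (chr11:72037460-72037759, minus strand) a chaperone of PDE6, Gnat2 (chr3:108092816-108093115, plus strand) cone transducin alpha, Guca1a (chr17:47400557-47400856, minus strand) an activator of retinal guanylate cyclase, and Crx (chr7:15879906-15880205, minus strand) the factor itself.
Sag: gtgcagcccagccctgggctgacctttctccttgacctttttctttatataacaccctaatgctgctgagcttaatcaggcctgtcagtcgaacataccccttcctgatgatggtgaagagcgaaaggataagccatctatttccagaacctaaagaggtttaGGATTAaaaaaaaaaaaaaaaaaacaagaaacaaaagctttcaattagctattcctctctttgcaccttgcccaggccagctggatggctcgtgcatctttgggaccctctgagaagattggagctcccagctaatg
Aipl1: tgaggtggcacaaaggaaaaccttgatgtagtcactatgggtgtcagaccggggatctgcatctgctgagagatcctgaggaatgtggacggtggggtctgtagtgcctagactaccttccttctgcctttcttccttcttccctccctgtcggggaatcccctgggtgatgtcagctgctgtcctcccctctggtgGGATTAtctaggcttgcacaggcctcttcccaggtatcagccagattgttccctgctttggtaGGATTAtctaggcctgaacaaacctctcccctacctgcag
Gnat2: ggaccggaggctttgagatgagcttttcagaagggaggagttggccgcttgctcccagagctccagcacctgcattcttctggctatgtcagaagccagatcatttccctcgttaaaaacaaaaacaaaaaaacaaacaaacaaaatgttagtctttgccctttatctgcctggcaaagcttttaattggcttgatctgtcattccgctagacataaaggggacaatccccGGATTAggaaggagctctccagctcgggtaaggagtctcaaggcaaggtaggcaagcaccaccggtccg
Guca1a: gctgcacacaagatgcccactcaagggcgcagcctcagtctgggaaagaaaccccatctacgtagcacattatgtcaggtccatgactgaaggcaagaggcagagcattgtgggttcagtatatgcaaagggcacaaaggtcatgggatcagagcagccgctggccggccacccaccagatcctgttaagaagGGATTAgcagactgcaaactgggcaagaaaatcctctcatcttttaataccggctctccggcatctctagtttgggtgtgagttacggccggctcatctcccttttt
Crx: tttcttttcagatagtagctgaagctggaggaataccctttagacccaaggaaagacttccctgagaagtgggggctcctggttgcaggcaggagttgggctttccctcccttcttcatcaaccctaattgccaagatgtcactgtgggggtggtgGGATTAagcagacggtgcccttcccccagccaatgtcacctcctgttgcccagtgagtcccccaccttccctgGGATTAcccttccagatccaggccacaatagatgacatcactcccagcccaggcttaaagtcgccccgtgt
The motif's first base lay 87 bases before the start in Sag, 57 before in Guca1a, 19 before in Gnat2, 94 and 21 before in Crx, and 53 before and 10 after in Aipl1. Of the phototransduction genes that were at least 4-fold higher in pineal barcodes, 13 had a window and 8 of those held the motif (61.5%), namely Sag, Aipl1, Gnat2, Guca1a, Gnb5, Gucy2e, Cngb1 and Unc119. Of the genes of the outer segment and cilium chosen the same way, 2 of 8 held it (25%), Prcd and Rpgrip1, and of the genes of melatonin synthesis 0 of 6, of which the Asmt window has 250 undetermined bases and could hardly show a match. Across all RefSeq windows of this length 7.06% of 32851 windows and 8.14% of 27025 genes held it. A match describes these letters and shows no binding.

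Each member's 5-gene sum ranged from 5 to 418 UMIs with a median of 54 in JVL-14, and from 6 to 396 with a median of 102 in sham. It made up a median of 1.12% of a member's UMIs in JVL-14 and 0.973% in sham. Some members lay near the limit of 5, and their number moved with it. Limits of 3 and 10 gave 20 and 13 members in JVL-14 and 70 and 50 in sham. Members with sums of 5 to 8 numbered 4 in JVL-14 and 6 in sham, while among the other retained barcodes sums of 4 occurred in 0 in JVL-14 and 5 in sham, and sums of 3 in 3 in JVL-14 and 9 in sham. A sum of 0 was found in 94.7% of the other barcodes in JVL-14 and 93.2% in sham. No barcode with a sum of 5 or more was removed by the limits on Omp and Stoml3 or on C1q. The filters on genes and mitochondrial UMIs removed 3 such barcodes in JVL-14 and 4 in sham.

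Some members held transcripts of other cells, and a few carried little of the pineal set beside them. The fibroblast and arachnoid markers, 10 genes, summed to at least 100 UMIs in 1 JVL-14 member and 3 sham members, and haemoglobin transcripts reached 7526 UMIs in 1 sham member. The JVL-14 member with 759 fibroblast-marker UMIs had a 5-gene sum of 6 in 13810 UMIs and no UMI of Tph1 or Chgb, and the sham member with 216 had a sum of 8 in 15255 UMIs and 1 UMI each of Tph1 and Chgb, so their markers go against the pineal name. The other 3 had 6 to 72 UMIs of Tph1. Without all 5, 16 members were left in JVL-14 and 53 in sham. Scrublet, which scores each barcode for its likeness to simulated doublets, placed 16 of the 17 JVL-14 members and 7 of the 57 sham members in the top 5% of its scores, against 137 (5.25%) of all retained barcodes in JVL-14 and 279 (5.64%) in sham. Removing that top 5% left 1 member in JVL-14 and 50 in sham, so the number in JVL-14 rests on keeping them. The UMIs per barcode had a median of 7298 (846 to 29873) in JVL-14 and 6640 (694 to 48413) in sham, against 4714 in the other JVL-14 barcodes and 4697.5 in the other sham barcodes.

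Genes outside the 5-gene sum were also high in the members. Of those, Tph1 and Chgb were among the markers fixed for the pineal name, so they are description and no independent check of it. Tph1, tryptophan hydroxylase 1, which starts serotonin synthesis, had 742 UMIs in 15 of 17 members in JVL-14 and 2105 UMIs in 56 of 57 members in sham. Levels are given as CPM, UMIs of the gene per 1000000 UMIs of the set; the 3′ assay counts transcripts, so CPM is not divided by length, though genes can differ in capture. Tph1 stood at 3468 CPM in JVL-14 pineal barcodes (3223 to 3727), 2777 CPM in sham pineal barcodes (2659 to 2898), and 9.66 CPM in the other sham barcodes. It ranged from 0 to 179 UMIs per member with a median of 12 in JVL-14 and from 0 to 162 with a median of 25 in sham. Of all retained sham UMIs of Tph1, 87.6% lay in the 57 members. Of the other 299, 257 were in 93 barcodes with at least 5 UMIs of mast cell proteases, mast cells being a known second site of Tph1. Chgb, chromogranin B of secretory granules, had 95.6% of its retained sham UMIs in the members, and Cplx3, a complexin of ribbon synapses, 98.4%. The sham members held 97.7% of the UMIs of Pde6g, 97.1% of Aipl1, 97.0% of Gnb3, 88.2% of Sag and 83.5% of Tulp1, all genes of the choice.

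Marker lists of the retina, astrocytes and pituitary were mixed, with many defining genes at or near 0. Rod markers, a list of 10 genes, summed to 1253 CPM in JVL-14 members, 1170 CPM in sham members and 12.2 CPM in the other sham barcodes. The 3 compared, Rom1, Pde6b and Reep6, were all at least 4-fold higher in sham members, whereas Nr2e3, Gnat1 and Cnga1 had no UMI there and Nrl had 2. The 15 markers of other retinal cells summed to 220 CPM in JVL-14 members, 264 CPM in sham members and 582 CPM in the other sham barcodes, and none of the 3 compared passed 4-fold. Their UMIs in sham members lay mostly in Glul (123), a glutamine synthetase of many tissues, and Prkca (33). Of the same list, Pou4f1, Lhx1, Calb1, Tfap2a, Tfap2b and Rpe65 had none, in either library. The bipolar cell genes Grm6 and Trpm1 had 1 UMI each in JVL-14 members and 13 and 4 UMIs in sham members, and Rbpms, a ganglion cell gene that is also found elsewhere, had 11 UMIs in JVL-14 members and 19 in sham members. Astrocyte markers, 10 genes, summed to 402 CPM in JVL-14 members, 470 CPM in sham members and 4642 CPM in the other sham barcodes, and Apoe made up 168 of their UMIs in sham members. Gfap and Aqp4 had 0 UMIs in sham, with 1 UMI of Gfap in JVL-14, and Slc1a3 had 0 UMIs in JVL-14 and 1 in sham, although Slc1a2, a glutamate transporter that neurons can also express, was at 164 CPM in JVL-14 members and 173 CPM in sham members. Pituitary markers, 10 genes, summed to 6811 CPM in JVL-14 members, 8206 CPM in sham members and 59.3 CPM in the other sham barcodes. Nearly all of that sum in members was Chgb, which is on this list too and so does not set pineal from pituitary cells. The hormones themselves were near 0 in sham, with 0 UMIs of Gh, 2 of Prl and 14 of Pomc. In JVL-14, 1 member held all 27 UMIs of Cga, the shared alpha subunit of pituitary hormones. A count of 0 allows up to 3 UMIs in the set.

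Among 9415 genes with enough UMIs to compare in sham (mean of at least 10 CPM over both sets and at least 20 UMIs), 972 (10.3%) were at least 4-fold higher in pineal barcodes than in the others and 1616 (17.2%) at least 4-fold lower. In JVL-14 these were 932 (10.1%) and 643 (6.94%) of 9263 genes. Members held 213929 UMIs in JVL-14 and 758130 in sham. With counts under 3 set to 3, a lower call in JVL-14 needed a higher level in the other barcodes. The JVL-14 members also include the barcode with 759 fibroblast-marker UMIs. Of 10 fibroblast markers, 3 were at least 4-fold lower in JVL-14 and all 10 in sham. The part of depth and of that barcode in the difference was not tested. The genes higher in both libraries numbered 641, which is 68.8% of the JVL-14 set and 65.9% of the sham set. Those lower in both numbered 570, which is 88.6% of the JVL-14 set and 35.3% of the sham set. A gene close to 0 elsewhere could enter only through its pineal level, so the counts of gene groups that follow are descriptions and are set against these background shares.

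Melatonin synthesis was covered nearly from end to end. Of 11 genes, 7 were at least 4-fold higher in sham pineal barcodes than in the other sham barcodes, 2 were higher by less (Pts and Spr), and Tph2 had no UMI. The median log2 ratio of the 9 compared genes was 6.80, against 0.20 over all genes compared. Ddc, which converts 5-hydroxytryptophan to serotonin, stood at 654 CPM in JVL-14 pineal barcodes, 580 CPM in sham pineal barcodes and 2.88 CPM in the other sham barcodes. The genes that make or recycle the hydroxylase cofactor tetrahydrobiopterin were also higher in pineal barcodes. Gch1, which begins that pathway, was at 617 CPM in JVL-14 pineal barcodes, 603 CPM in sham pineal barcodes and 16.4 CPM in the other sham barcodes. Pcbd1, which regenerates the cofactor, was at 346 CPM in JVL-14 members, 358 CPM in sham members and 3.20 CPM in the other sham barcodes. Qdpr, its partner in recycling, was at 491, 472 and 42.0 CPM in the same order.

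The last enzymes of the pathway were detected but scarce. Aanat, which acetylates serotonin and is the step that sets the night rise, had 19 UMIs in 5 of 17 members in JVL-14, or 88.8 CPM (53.5 to 139), and 45 UMIs in 19 of 57 members in sham, or 59.4 CPM (43.3 to 79.4). Asmt, which makes melatonin from acetylserotonin, had 18 UMIs in 7 members in JVL-14, or 84.1 CPM (49.9 to 133), and 121 UMIs in 35 members in sham, or 160 CPM (132 to 191). Both were at 0.0970 CPM in the other sham barcodes, from 3 UMIs each. Genes of serotonin storage and breakdown were nearly silent in the members: of 10 such genes, only Slc18a2, the vesicular monoamine transporter, with 1 UMI, and Maoa, monoamine oxidase A, with 3 UMIs, were seen in sham, and none in JVL-14. The transporters Slc18a1 and Slc6a4, the oxidase Maob and the melatonin receptors Mtnr1a and Mtnr1b had no UMI in either set of members.

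At a common depth of 1000 UMIs per barcode, Tph1 was seen in 81.2% of 16 JVL-14 members and 88.5% of 52 sham members deep enough to thin. The same share was 0% in 198 olfactory sensory neurons and 1.08% in 4447 other sham barcodes. Ddc was seen in 31.2% of JVL-14 members, 46.2% of sham members and 0.360% of the other sham barcodes, and Asmt in 6.25%, 13.5% and 0.0450% of the same sets. Median depths before thinning were 7298 UMIs in JVL-14 members, 6640 in sham members, 9150 in olfactory neurons and 4697.5 in the other sham barcodes.

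**Figure D1:**
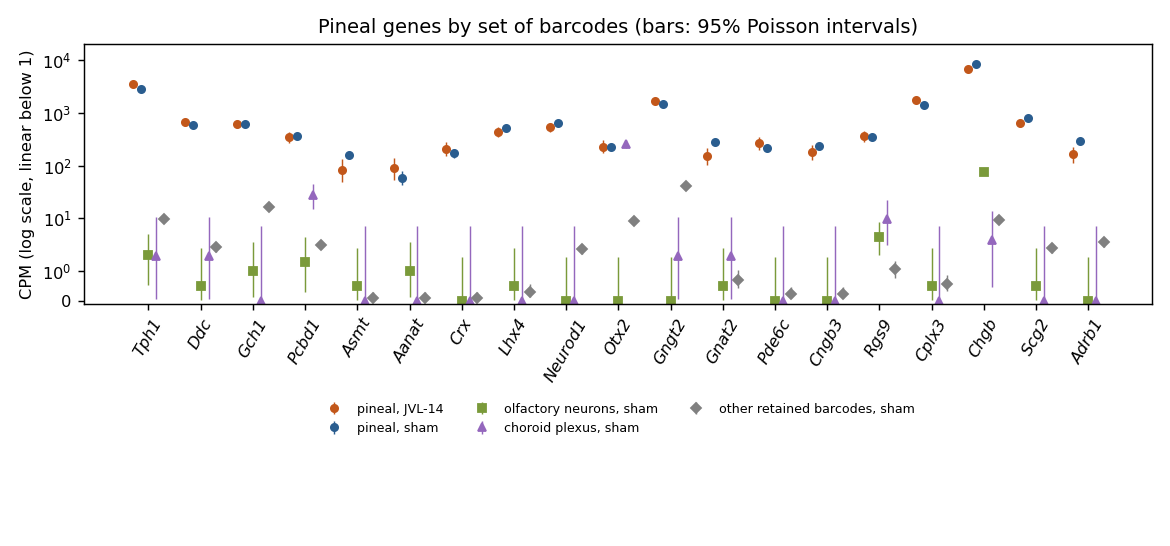
Levels of 19 pineal genes in CPM (log axis, linear below 1) in pineal barcodes of JVL-14 and sham and in 3 other sets of sham barcodes, with exact 95% Poisson intervals. Most genes stand far above the olfactory, choroid plexus and other barcodes in both libraries, Otx2 being as high in choroid plexus (256 CPM) as in sham pineal barcodes (227 CPM).

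The phototransduction cascade was present in a mixed form. Of 32 genes, 19 were at least 4-fold higher in pineal barcodes than in the other sham barcodes, Gnb1 was compared and was not, and 12 had too few UMIs. The 19 include the 5 genes used to choose members, and the median log2 ratio of the 20 compared genes was 8.29. At the steps of transducin, the catalytic PDE6 subunits and the channel B subunits, the cone gene had the higher level in the 57 sham members. The cone transducin alpha Gnat2 was at 150 CPM in JVL-14 members and 277 CPM in sham members, whereas the rod form Gnat1 had no UMI. Cone transducin gamma Gngt2 was at 1692 CPM in JVL-14 members and 1480 CPM in sham members, beside 56.1 and 23.7 CPM of the rod form Gngt1. The catalytic PDE6 subunits of cones (Pde6c) and rods (Pde6b) were both found, at 218 CPM and 93.7 CPM in sham members, while Pde6a of rods had 6 UMIs.

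Rod genes led at other steps. The inhibitory PDE6 subunit was the rod form Pde6g, a gene of the choice, at 4319 CPM in JVL-14 members and 3858 CPM in sham members, and the cone form Pde6h had 0 UMIs in JVL-14 and 1 in sham. Arrestin was likewise the rod form, Sag, at 1351 CPM in JVL-14 members and 985 CPM in sham members, with 0 UMIs in JVL-14 and 2 in sham of the cone form Arr3. Channel B subunits of cones (Cngb3) and rods (Cngb1) stood at 231 and 164 CPM in sham members. The channel A subunits that should accompany them were scarce, with no UMI of Cnga1 and 5 UMIs of Cnga3 in sham members and none of either in JVL-14 members. Gngt2 is less restricted than the others, as 47.0% of its retained sham UMIs lay in the members and 13.4% of the other sham barcodes held a UMI.

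Shut-off and calcium feedback genes were detected unevenly. Rgs9, which speeds transducin's return to rest, was at 355 CPM in JVL-14 members and 352 CPM in sham members. Its partner Gnb5 was at 397 and 405 CPM in the same sets. Guca1a was at 98.2 CPM in JVL-14 members and 132 CPM in sham members, but in sham its 100 UMIs lay in 22 barcodes, and Guca1b had none. The calcium sensor recoverin (Rcvrn) and phosducin (Pdc), abundant in retinal photoreceptors, had no UMI in the members of either library.

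Cone opsins were rare. Opn1sw, the short-wave cone opsin, had 2 UMIs in 1 JVL-14 member and 10 UMIs in 2 sham members, and Opn1mw had 0 UMIs in JVL-14 and 2 UMIs in 1 sham member. Opn3, Opn4 and Opn5 had none. Of 18 genes of pigments and the retinoid cycle, 3 were at least 4-fold higher than in the other sham barcodes, Rbp3, Rdh5 and Abca4, and 1, Dhrs3, was at least 4-fold lower. Rbp3, the retinoid-binding protein between photoreceptors and pigment epithelium, was at 290 CPM in JVL-14 members and 309 CPM in sham members. Rpe65 and Lrat, which regenerate the chromophore in the pigment epithelium, had no UMI in sham members.

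**Figure D2:**
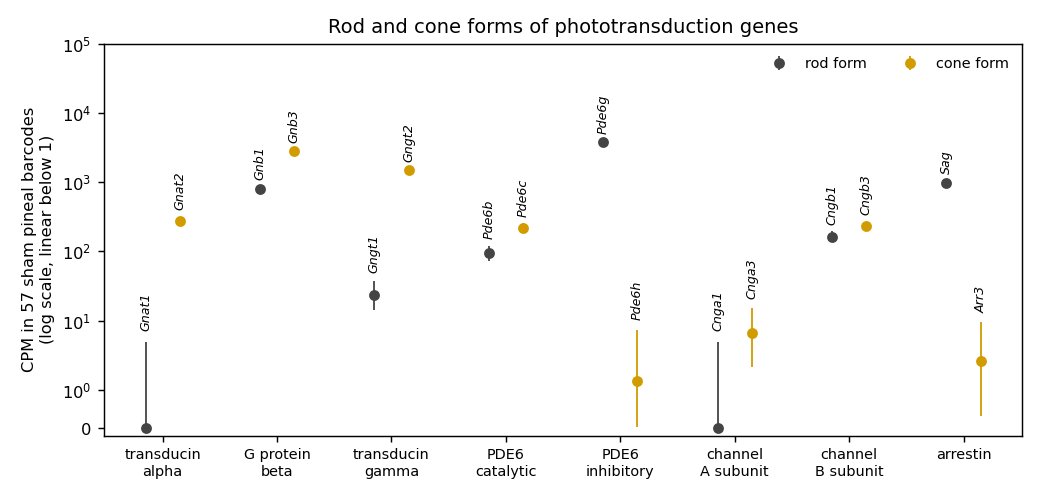
Levels in CPM (log axis, linear below 1) of rod and cone forms at 8 steps of phototransduction in the 57 sham pineal barcodes, with exact 95% Poisson intervals. Gnat2 (277 CPM) and Gngt2 (1480 CPM) stand above their rod forms, Pde6g (3858 CPM) and Sag (985 CPM) above their cone forms, and Gnat1 and Cnga1 are at 0; Pde6g, Sag and Gnb3 were used to choose the barcodes.

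Structural genes of the photoreceptor outer segment and cilium were also found. Of 15 measured genes, 9 were at least 4-fold higher than in the other sham barcodes, none was lower, and 6 had too few UMIs. Rom1 and Prph2, the paired tetraspanins of disc rims, were at 1084 and 126 CPM in JVL-14 members and 1022 and 168 CPM in sham members. Cplx3 and Cplx4, complexins of photoreceptor ribbon synapses, were at 1711 and 594 CPM in JVL-14 members and 1381 and 493 CPM in sham members. Rp1, an axoneme protein of retinal photoreceptors, had no UMI in either set of members.

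Transcription factors of pineal cells and photoreceptors were found, with the rod factors at or near 0. Of 23 measured, 13 were at least 4-fold higher than in the other sham barcodes, Mef2d was less than 4-fold higher, Mef2c was lower, and 8 had too few UMIs. Crx was at 206 CPM in JVL-14 members and 170 CPM in sham members, with 3 UMIs in all other retained sham barcodes. Lhx4, a LIM homeodomain factor, was at 435 CPM in JVL-14 members and 516 CPM in sham members. Neurod1, a basic helix-loop-helix factor of pinealocytes and photoreceptors, stood at 528 and 645 CPM in the same sets. Otx2, upstream of Crx in pineal development, was at 229 and 227 CPM, and the nuclear receptor Rorb at 248 and 256 CPM. Bsx, a homeobox factor of pineal development, was low, with 6 UMIs in 4 JVL-14 members and 44 UMIs in 20 sham members. The rod factor Nr2e3 had no UMI in the members of either library, Nrl had 0 UMIs in JVL-14 and 2 in sham, and Pax4, Samd7, Six3, Six6 and Prdm1 had none.

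Receptors for noradrenaline were of the beta-1 and alpha-1B types. Adrb1 was at 164 CPM in JVL-14 members (35 UMIs in 6 of 17) and 290 CPM in sham members (220 UMIs in 34 of 57). Adra1b was at 70.1 and 80.5 CPM in the same sets. Of 28 genes of adrenergic and cyclic AMP signalling, 8 were at least 4-fold higher than in the other sham barcodes, 6 at least 4-fold lower, and 9 too low to compare; the median log2 ratio of those compared was 0.32, close to the 0.20 of all genes. Higher ones included Pde8b (154 CPM in JVL-14 members, 145 CPM in sham members), a cyclic AMP phosphodiesterase, Prkar2b (280 and 309 CPM), a regulatory subunit of protein kinase A, and Mat2a (482 and 575 CPM), which makes the methyl donor used by Asmt.

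Secretory granule genes were high but incomplete. Chgb had 6656 CPM in JVL-14 members (6315 to 7011) and 8181 CPM in sham members (7978 to 8387), and it ranged from 0 to 305 UMIs per barcode with a median of 27 in JVL-14 and from 0 to 448 with a median of 18 in sham. Scg2, secretogranin II, was at 631 and 782 CPM in these sets, Chga at 341 and 508 CPM, and Ptprn, a granule membrane protein, at 196 and 255 CPM. Of 16 genes, 6 were at least 4-fold higher than in the other sham barcodes and Cpe and Pam were at least 4-fold lower. The prohormone convertases Pcsk1 and Pcsk2 and the granule proteins Vgf and Resp18 had no UMI in the members of either library.

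Synaptic vesicle genes were present with a glutamatergic transporter. Of 28, 13 were at least 4-fold higher than in the other sham barcodes, none lower, and 10 were too low to compare. Slc17a6, vesicular glutamate transporter 2, was at 215 CPM in JVL-14 members and 253 CPM in sham members, whereas the inhibitory markers Gad1, Gad2 and Slc32a1 had no UMI. Stx3, the syntaxin of ribbon synapses, was at 421 and 434 CPM.

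Clock genes gave little contrast. Of 21 measured, 2 were at least 4-fold higher, among them Rorb, and 3 at least 4-fold lower than in the other sham barcodes, with a median log2 ratio of 0.64. Per1 had 4 UMIs in JVL-14 members and 2 in sham members, or 18.7 and 2.64 CPM, against 55.4 CPM in the other sham barcodes. Dbp was at 117 and 75.2 CPM in the same sets of members and 21.8 CPM in the other sham barcodes.

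The highest ratios over the other sham barcodes that no list held were led by Glb1l3, Chrna3, Syt6, the host gene of miR-124 Mir124a-1hg, and Chrnb4. Chrna3 and Chrnb4 encode subunits of a nicotinic acetylcholine receptor that ganglion neurons also use. Chrnb4 was at 299 CPM in JVL-14 members and 344 CPM in sham members, with 0.291 CPM in the other sham barcodes, and Chrna3 at 168 and 178 CPM, with 3 UMIs in those others. Glb1l3, a beta-galactosidase-like gene, had 31 UMIs in JVL-14 members and 144 in sham members and none in the other sham barcodes. Cabp5, Frmpd2, AI847159, Spink4, Fam135b, Slc6a11, Mesp1, Mpp4, Lingo3 and Camkv completed the 15 by rank. Mpp4, a scaffold of photoreceptor terminals, was at 285 and 429 CPM, and Spink4, a secreted protease inhibitor, at 1000 and 827 CPM, in JVL-14 and sham members. Syt6, a synaptotagmin, was the most uneven of the 15, with 62.4% of its sham UMIs in 5 barcodes.

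Olfactory sensory neurons were the nearest neuronal comparison, with 201 barcodes in sham. Of 9222 genes compared, 952 (10.3%) were at least 4-fold higher in sham pineal barcodes and 1478 (16.0%) at least 4-fold lower, and the members were limited beforehand in 2 of the lower genes, Omp and Stoml3. With the genes of the choice left out of the ranking, the higher genes were Tph1, Gngt2, Cplx3, Crabp1, Mgarp, Spink4, Scg2 and Smim40. Crabp1, a retinoic acid binding protein, was at 1348 CPM in pineal barcodes, with 1 UMI in olfactory neurons. Mgarp, a mitochondrial protein, was at 1179 CPM in pineal barcodes, with 2 UMIs in olfactory neurons. The lower genes beside Omp and Stoml3 were Gnal, the olfactory G protein, Fstl5, Gfy, Sult1d1, Nsg1 and Serpine2, and Gnal had no UMI in pineal barcodes and 3046 CPM in olfactory neurons.

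Secretory and synaptic genes did not separate pineal barcodes from olfactory neurons in 1 direction. Of 16 granule genes, 4 were at least 4-fold higher and 4 at least 4-fold lower, and of 28 synaptic genes 5 were higher and 9 lower. Chga, at 508 CPM in pineal barcodes and 2663 CPM in olfactory neurons, ran opposite to Chgb, at 8181 and 77.0 CPM. Phototransduction genes were at least 4-fold higher in 17 of 32 cases and at least 4-fold lower in 1. The 17 include the 5 genes of the choice, whose sum was held under 5 in olfactory barcodes by definition, so their contrast was fixed beforehand. The lower one was Gnb1, at 809 CPM in pineal barcodes and 5404 CPM in olfactory neurons, and Cngb1, which both systems use, was at 164 and 218 CPM.

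Choroid plexus, which lines the ventricles and makes cerebrospinal fluid, gave 61 sham barcodes. They were chosen by Folr1, Kcnj13, Clic6 and Kl, so those genes are description here. Of 6901 genes compared, 1201 (17.4%) were at least 4-fold higher in sham pineal barcodes and 457 (6.62%) at least 4-fold lower. Chgb, Tph1, Gngt2, Cplx3, Crabp1, Meg3, Sorl1 and Snap25 led the higher genes, with the genes of the choice again left out. Ttr, transthyretin, led the lower ones with 48.8 CPM in pineal barcodes and 199040 CPM in choroid plexus, followed by Enpp2, Mt3, Sostdc1 and Igfbp2. All 20 compared phototransduction genes were at least 4-fold higher in pineal barcodes. They include Pde6g, Sag, Aipl1, Gnb3 and Tulp1, whose sum chose the members, so the contrast of those genes was fixed beforehand. Gnb1 and Gngt1 passed narrowly, at 4.01 and 4.08 times, and stayed past 4-fold in 7 and 8 of 12 alternatives. Otx2 was shared, at 227 CPM in pineal barcodes and 256 CPM in choroid plexus.

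Within the members the widest spread at a common depth of 1000 UMIs belonged to Apod, Cst3, Malat1, Dcn, Dbi, Apoe, Chgb, Cryab, Fabp7 and Ctnna1, ranked by variance over mean among 243 genes. Of these, 8 were also among the leading 10 at 2000 UMIs. Apod and Dcn are fibroblast genes and had 98.9% and 97.8% of their sham UMIs in 5 members. Malat1, a long non-coding RNA kept in the nucleus, divided the members: at 1000 UMIs 42.3% of sham members had none, and at full depth it ranged from 0 to 1613 UMIs per sham barcode.

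The Malat1 split left a wide gap. With a limit of 10 UMIs per 10000, chosen after the values were seen, 10 of 17 members in JVL-14 (58.8%, 32.9% to 81.6%) and 31 of 57 in sham (54.4%, 40.7% to 67.6%) were Malat1-poor. In sham the Malat1-poor members reached at most 4.93 per 10000, and the Malat1-rich ones began at 20.2 with a median of 304. Among the other barcodes, 19.6% in JVL-14 and 26.5% in sham were Malat1-poor, as were 8.74% of olfactory neurons in JVL-14 and 7.46% in sham, and 55 of 61 choroid plexus barcodes in sham (90.2%). Depth moved with the split. Malat1-poor members had a median of 3296 UMIs (694 to 9507) and Malat1-rich ones 24634.5 (962 to 48413) in sham, and 3725.5 and 24766 in JVL-14. Of the members in the top 5% of Scrublet scores, 10 of 16 in JVL-14 and 5 of 7 in sham were Malat1-poor. The part of depth and of doublets in the split was not tested.

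**Figure D3:**
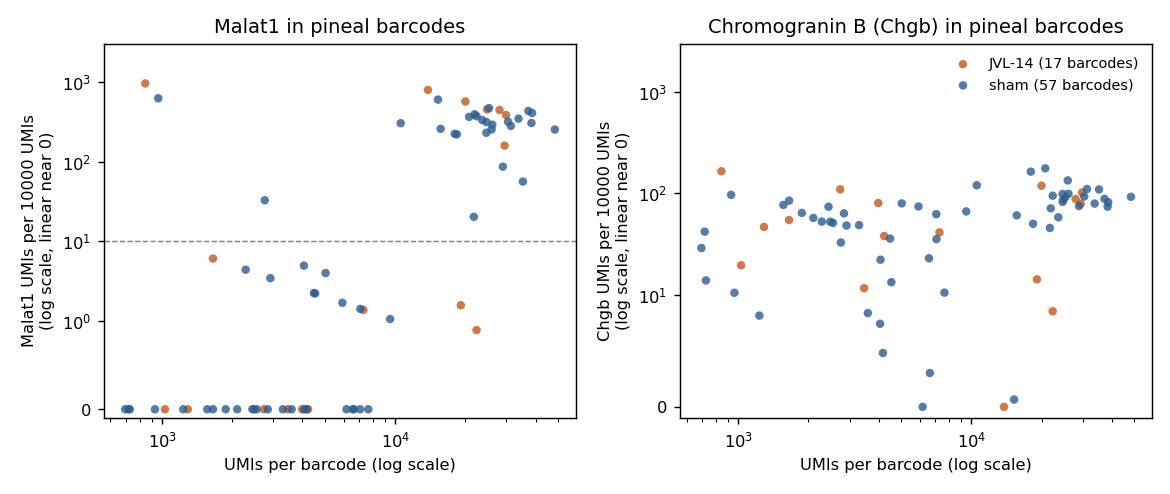
Each of the 74 pineal barcodes by its UMIs (log axis) against Malat1 (left) and Chgb (right) per 10000 UMIs (log axis, linear near 0); the dashed line marks 10 Malat1 UMIs per 10000. Malat1-poor barcodes lie below the line at 0 to 6.06 per 10000, and most of them have under 10000 UMIs, and Chgb is at 0 in 1 JVL-14 barcode and 1 sham barcode.

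Malat1-poor and Malat1-rich members differed in several gene groups, pineal ones included. Without the barcodes rich in fibroblast or haemoglobin transcripts, 4831 genes were compared between Malat1-poor and Malat1-rich sham members, of which 161 (3.33%) were at least 2-fold higher and 658 (13.6%) at least 2-fold lower in Malat1-poor ones. The median log2 ratio of all of them was -0.17. Transcripts kept in the nucleus were lower as a group, which includes Malat1 itself: of 12 compared, 11 were at least 2-fold lower, with a median of -1.97. Meg3, an imprinted non-coding RNA, had 0 UMIs in Malat1-poor members and 735 in Malat1-rich ones, and Kcnq1ot1 stood at 0 and 217 CPM. The list of nuclear RNAs, and those of chaperones, glycolysis and mitochondrial genes, were added after values were seen.

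Early response genes were also low in Malat1-poor members. Of 14 compared heat shock and immediate early genes, 9 were at least 2-fold lower, with a median log2 ratio of -1.28. Fos was at 62.1 CPM in Malat1-poor members and 1346 CPM in Malat1-rich ones, and Junb at 26.6 and 618 CPM, while the heat shock genes Hspa8 and Hsp90aa1 were at 1.32 and 1.12 times the Malat1-rich level. Chaperones of the endoplasmic reticulum were lower in 12 of 13 cases, 7 of them at least 2-fold, with a median of -1.05, and Hspa5 was at 177 CPM in Malat1-poor members and 377 CPM in Malat1-rich ones. All 13 mitochondrially encoded genes were lower, with a median of -0.63. Glycolysis genes ran the other way, all 13 higher, 1 at least 2-fold, with a median of 0.71, as with Gapdh at 4016 CPM in Malat1-poor members and 2133 CPM in Malat1-rich ones.

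Pineal genes differed in both directions. Tph1 was at 4885 CPM in Malat1-poor members and 2574 CPM in Malat1-rich ones, a ratio of 1.90 (1.72 to 2.10), and Gngt2 was 1.93 times as high (1.68 to 2.21). Chgb was at 3910 CPM and 9384 CPM in these sets, a ratio of 0.417 (0.377 to 0.459), and Neurod1 at 213 and 778 CPM, a ratio of 0.274 (0.173 to 0.412). Of 20 compared phototransduction genes 9 were higher and 11 lower, 5 of them at least 2-fold, with a median log2 ratio of -0.21. Pde6g (a ratio of 1.85) and Aipl1 (1.69), both genes of the choice, were among the higher ones in sham, and Cngb3 (0.156), Slc24a1 (0.286) and Cngb1 (0.406) among the lower ones, while Sag, at 931 and 1120 CPM, had an interval that spans 1 (0.669 to 1.02). All 7 compared granule genes were lower, 1 of them at least 2-fold, as were 8 of 9 outer segment genes, 4 at least 2-fold, and 11 of 13 transcription factors, 4 at least 2-fold. The 9 compared melatonin genes had a median log2 ratio of 0.12, with 5 higher and 4 lower. Dbi, an acyl-CoA binding protein, at 5310 CPM in Malat1-poor members and 523 CPM in Malat1-rich ones, Apoe, Cst3 and Cryab were the leading higher genes, and most of the Apoe UMIs in all sham members (83.9%) lay in 5 barcodes.

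Depth was brought closer, but not matched, in a narrower comparison. Between 2000 and 20000 UMIs, with the fibroblast and haemoglobin barcodes left out, 22 Malat1-poor sham members with a median of 4325.5 UMIs and 5 Malat1-rich ones with a median of 15659 UMIs remained. Tph1 was 2.58 times as high, Chgb 0.396 times and Junb 0.0421 times in Malat1-poor members, the directions found over all depths. Fos kept its direction with a smaller contrast, at 0.295 times against 0.0461 times over all depths. It had 7 UMIs in Malat1-poor members and 15 in Malat1-rich ones of this window. Scg2 was an exception, at 1.13 times, against 0.750 times over all depths. In JVL-14 the 10 Malat1-poor members stood at 4200 CPM of Tph1 and the 7 Malat1-rich ones at 3134 CPM, a ratio of 1.34 (1.15 to 1.56). The deepest Malat1-poor barcode of JVL-14, with 22333 UMIs, held 179 UMIs of Tph1, most of that set's, and the next deepest held 52. The direction for Tph1 in JVL-14 thus rests largely on that deepest barcode. Chgb in JVL-14 was at 2607 and 8509 CPM, a ratio of 0.306 (0.260 to 0.359), and Gngt2 at 1579 and 1744 CPM, a ratio of 0.905 (0.715 to 1.14), opposite in direction to sham. Aipl1 (0.481), Apoe (0.187), Cst3 (0.384) and Cryab (0.724) were likewise lower in Malat1-poor members of JVL-14, whereas all of them were higher in those of sham. In JVL-14 the fibroblast-rich barcode, which is Malat1-rich and has no UMI of Tph1 or Chgb, was not left out.

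**Figure D4:**
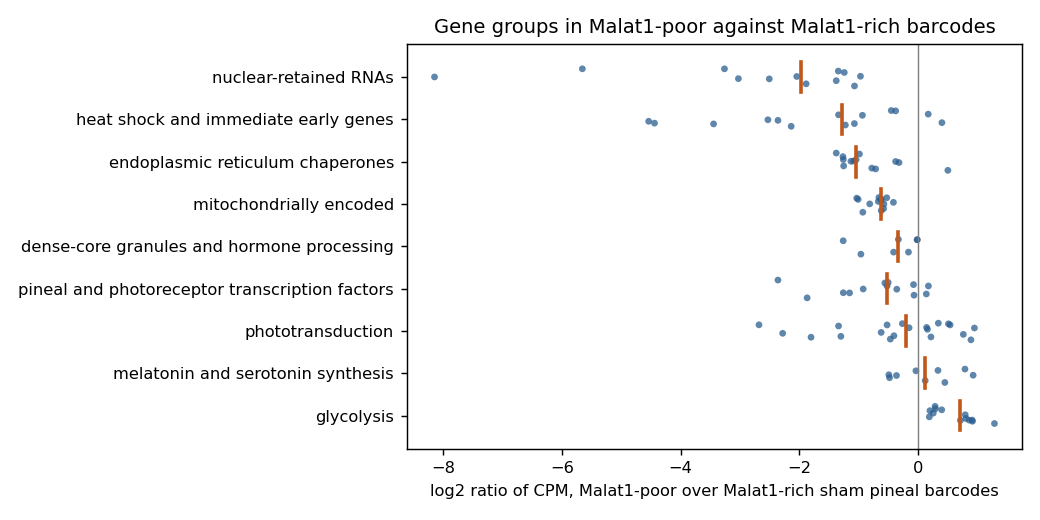
Log2 ratio of CPM in Malat1-poor over Malat1-rich sham pineal barcodes, without fibroblast- or haemoglobin-rich ones; each point is a gene, spread vertically for legibility, and each bar the median of its group. The medians of nuclear RNAs (-1.97), heat shock and immediate early genes (-1.28) and endoplasmic reticulum chaperones (-1.05) lie left of 0. That of glycolysis genes (0.71) lies right of it. Of the 14 heat shock and immediate early genes, 2 lie right of 0.

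Deep members differed among themselves in imprinted genes. Among 27 Malat1-rich members with at least 15000 UMIs and at least 20 UMIs of Chgb, 5 had at most 2 UMIs of Meg3, and the other 22 had 7 to 143. Barcodes rich in fibroblast or haemoglobin transcripts were not left out here. The Meg3-high set holds the sham member with 7526 haemoglobin UMIs and a sham member with 161 fibroblast-marker UMIs, which has the 143 UMIs of Meg3. The limits were set after the values were seen, and all 5 Meg3-low barcodes were from sham, whereas the Meg3-high ones were 5 from JVL-14 and 17 from sham. Rian, a non-coding RNA of the same imprinted cluster, had 0 UMIs in Meg3-low barcodes and 76 UMIs over 19 of the 22 Meg3-high ones. Dlk1, a protein-coding gene of that cluster expressed from the other parental copy, had 0 UMIs in Meg3-low barcodes and 108 UMIs over 13 of the Meg3-high ones. Its UMIs were 51, 22, 13 and 13 in the leading Meg3-high barcodes, all from sham, and at most 1 in each of the others. The barcode with 22 is the fibroblast-rich one. Most Meg3-high barcodes thus also had little or no Dlk1, which reached 1760 CPM in 1 of them. Outside these 27 the absence of both did not hold. Malat1-poor sham members, without fibroblast- or haemoglobin-rich ones, had 0 UMIs of Meg3 and 43 of Dlk1. That Dlk1 level was 381 CPM, against 149 CPM in Malat1-rich ones.

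The sets also differed in melatonin genes. Tph1 was at 1290 CPM in Meg3-low barcodes (307 to 2223 over barcodes) and 2891 CPM in Meg3-high ones (979 to 5592), so that the ranges overlapped. Aanat had 0 UMIs in the 5 Meg3-low barcodes and 53 in 16 of the 22 Meg3-high ones. Asmt did not follow, at 158 CPM in Meg3-low and 149 CPM in Meg3-high barcodes, nor did Chgb, at 9407 and 9169 CPM. Guca1a, at 391 CPM in Meg3-low and 78.6 CPM in Meg3-high barcodes, and Gnat2, at 483 and 229 CPM, ran the other way, as did Pgc, progastricsin, at 516 and 68.9 CPM. Their ranges over barcodes overlapped too. Guca1a spanned 0 to 766 CPM in Meg3-low and 0 to 441 CPM in Meg3-high barcodes, and Pgc 0 to 1150 and 0 to 780 CPM. With 5 barcodes on 1 side these values describe those barcodes.

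**Figure D5:**
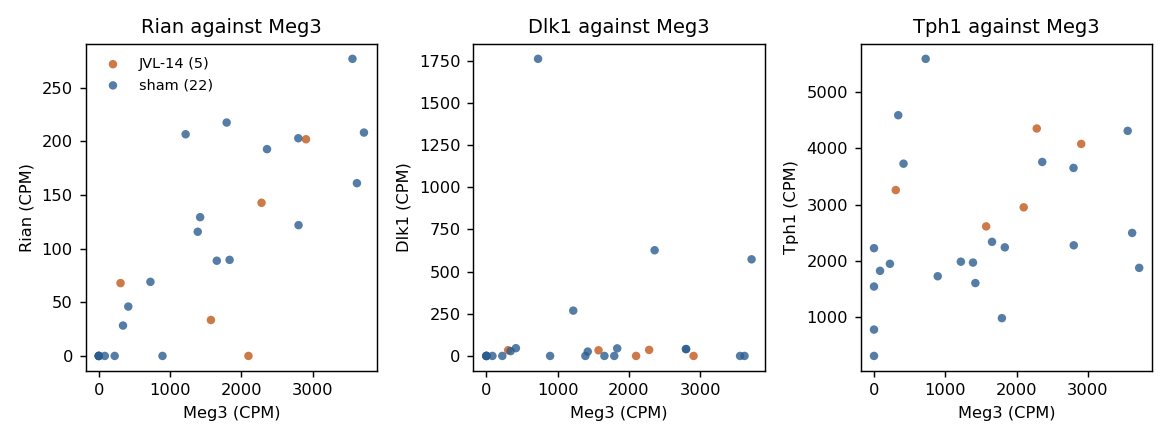
Rian, Dlk1 and Tph1 against Meg3, all in CPM, in the 27 deep Malat1-rich pineal barcodes (5 from JVL-14, 22 from sham). Among these 27, barcodes with little or no Meg3 have no Rian and no Dlk1, Dlk1 is high in a few barcodes, and Tph1 spans 307 to 5592 CPM with overlap.

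JVL-14 and sham members were close in most genes, compared as libraries and not as conditions. Of 6143 genes, 30 (0.488%) were at least 4-fold higher and 23 (0.374%) at least 4-fold lower in JVL-14 members, and 201 (3.27%) and 499 (8.12%) passed 2-fold. No melatonin gene passed 2-fold, with 6 of 9 compared genes higher, 3 lower and a median log2 ratio of 0.06, against -0.04 over all genes. Asmt came nearest, at 0.527 times the sham level (0.302 to 0.869), and Aanat lay between 0.827 and 2.61 times. Of the phototransduction genes Gngt1 was at least 2-fold higher and Gucy2e and Rgs9bp at least 2-fold lower, and Gnat2 was at 0.540 times (0.360 to 0.786).

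Early response genes were lower in JVL-14 members. Fos was at 248 CPM in JVL-14 members and 1078 CPM in sham members, though 64.6% of its sham UMIs lay in 5 barcodes, and Junb was at 150 and 574 CPM. Of 17 compared heat shock and immediate early genes, 9 were at least 2-fold lower and 1 at least 2-fold higher. All 13 mitochondrially encoded genes were lower, with a median log2 ratio of -0.72. Fibroblast markers were 5 of 8 at least 4-fold higher, and 1 JVL-14 barcode held 759 UMIs of these markers. All 4 compared haemoglobin genes were at least 4-fold lower, and 1 sham barcode held 7526 haemoglobin UMIs. Restricted to deep Malat1-rich members without those barcodes, 5 in JVL-14 and 20 in sham, 6 (0.120%) of 4988 genes were at least 4-fold higher and 8 (0.160%) lower. Fos was then at 363 CPM in JVL-14 and 1373 CPM in sham, a ratio of 0.265 (0.193 to 0.355), Chgb at 9346 and 9379 CPM, and Tph1 at 3451 and 2559 CPM. Each group is 1 library, so the ligature and the library cannot be told apart.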

How the data were processed

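The authors deposited filtered gene-by-barcode matrices of UMI counts, written by Cell Ranger 8.0.0 per the file headers, and the submitters' processing notes name the build mm39. The counts were not normalised, covered 33696 genes and started at 500 UMIs per barcode; no source here names the annotation. Symbols repeated in the files (26) were kept as the gene with more UMIs.

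Barcodes were filtered and chosen as stated, with no doublet removal in the main values. Scrublet (scanpy 1.11.5) was run per library as an alternative. UMIs were summed per set, and ratios of CPM used at least 3 UMIs on the lower side. Intervals are exact at 95% (Poisson, Clopper-Pearson, conditional binomial). Sets were thinned to 1000 or 2000 UMIs per barcode. The 15 leading genes over the rest had at least 30 UMIs, were seen in at least 25% of members and were in no list; rankings left out the genes of the choice and mitochondrial, ribosomal, haemoglobin and unnamed genes; 8 a side were taken against the other sets and 10 for variation. The comparison was tested on simulated counts. Members and lists were chosen with earlier results of these data known. Analysis used Python 3.11.15 and SciPy 1.17.1. A few genes counted within the lists are not reported here.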

Additional observations from a re-analysis of the deposited data

How the results depend on the processing

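No paired analysis was possible because each group has 1 library. The number of members in JVL-14 was 1 without the top 5% of Scrublet scores. Without Malat1-poor members, an alternative chosen after seeing the data, 7 were left in JVL-14 and 26 in sham. With no filter on low counts, 2110 genes were at least 4-fold higher than in the other sham barcodes and 1616 than in olfactory neurons, and 768 were at least 4-fold lower than in choroid plexus, because more genes entered. Of 197 ratios past 4-fold, for 101 named genes over 3 comparisons, 187 stayed past it under every alternative run. Of the 10 others, Gnb1, Gngt1, Rgs9bp and Scg5 were against choroid plexus, and Cnga3, Gucy2f, Pde6a and Ptprn2 against olfactory neurons. The rest, Cpe and Pde6h, were against the other sham barcodes. The 197 include genes used to choose the sets and genes named for their leading ratios, so the count is no independent check. They also include genes with too few UMIs for the counts of called genes, such as Pde6h. None of 2797 recomputed values changed direction past the fold. Leaving out a replicate was not possible. Shallow members limit Asmt, Aanat and other scarce genes.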
